A study of Mus musculus with 36 samples.

Results

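The Dlk1-Dio3 miRNAs are the mature products of the imprinted cluster on mouse chromosome 12. They were chosen by name: every mature product, from either arm, of 48 listed hairpins that is among the 596 miRNAs counted. This gave 55 mature miRNAs from 37 hairpins, 24 of them from 5p arms and 31 from 3p arms. No mature product of the other 11 hairpins is among those 596. The members were counted in colonic tumours by HEAP, in which mature miRNAs and target fragments are crosslinked by ultraviolet light to a HaloTag fusion of Argonaute 2 and pulled down with it, so that a count reflects miRNA held by Argonaute 2 in the tumour.

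Tumours carrying G12D were Apc(fl/fl) together with Villin-CreER/+, Halo-Ago2/+ and K-Ras-G12D/+ (called G12D here, n = 6), and the other tumours carried the same Apc, Villin-CreER and Halo-Ago2 alleles with wild-type K-Ras (called WT, n = 6). All animals were C57BL/6 and received an enema of 200 µl of 4-hydroxytamoxifen at 5 mg/ml when 8 to 12 weeks old, which activates the CreER recombinase that the intestinal Villin promoter drives. In which cells of the tumour the Halo-Ago2 allele is active is not stated in the labels. Batch 2 holds replicates 4 to 6 and batch 1 holds replicates 1 to 3 of each genotype. Whether each number stands for its own animal is not in the labels, and p-values cover only the spread among these 12 tumour samples.

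The Dlk1-Dio3 domain is imprinted: the noncoding transcripts Meg3, Rian and Mirg, from which the miRNAs are processed, come from the maternal chromosome, and the protein-coding genes Dlk1, Rtl1 and Dio3 come from the paternal one. The miRNAs are known for their expression in brain, placenta and embryonic tissues. A mature miRNA leads Argonaute to target mRNAs mainly through its seed, bases 2 to 8 from the 5′ end, and several members of the cluster have closely related seeds.

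Of the 55 members, 53 matched a mature sequence in RefSeq (GRCm38.p6), all on the plus strand of chromosome 12 between bases 109563744 and 109743784, a span of 180041 bases. In the same annotation Meg3 lies at 109540996 to 109571729, Rtl1 at 109564900 to 109604418, Rian at 109603945 to 109661716 and Mirg at 109734981 to 109749458. A gap of 90738 bases between miR-370-3p and miR-379-5p parts the members into an upstream block of 14 from 10 hairpins and a downstream block of 41 from 27 hairpins. The sequences of the 16 members on which the results turn follow, with the seed in capitals: the most abundant member and the 2 that passed the test of correlation with it, miR-136-5p, the upstream miRNAs that differed between batches, the 2 with the lowest unadjusted p between genotypes, the 3 that followed the others least over all 12 tumours, and 2 pairs of near-identical products.
miR-299a-3p: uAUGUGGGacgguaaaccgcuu
miR-494-3p: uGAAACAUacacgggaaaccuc
miR-410-3p: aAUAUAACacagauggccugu
miR-136-5p: aCUCCAUUuguuuugaugaugg
miR-127-3p: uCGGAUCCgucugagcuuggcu
miR-337-5p: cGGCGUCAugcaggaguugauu
miR-540-3p: aGGUCAGAggucgauccugg
miR-673-5p: cUCACAGCucugguccuuggag
miR-382-5p: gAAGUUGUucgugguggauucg
miR-299a-5p: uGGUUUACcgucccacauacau
miR-541-5p: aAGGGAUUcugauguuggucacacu
miR-411-5p: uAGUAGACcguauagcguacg
miR-379-3p: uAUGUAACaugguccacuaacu
miR-411-3p: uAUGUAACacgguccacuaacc
miR-300-3p: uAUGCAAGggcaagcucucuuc
miR-381-3p: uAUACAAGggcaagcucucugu

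These 53 sequences held 52 distinct seeds. The only pair of members with the same seed was miR-379-3p and miR-411-3p, which differed at 2 of 22 bases, both outside the seed. miR-300-3p and miR-381-3p differed at 3 of 22 bases, 1 of them in the seed, and miR-543-3p and miR-495-3p at 4 of 22 bases, 2 of them in the seed. miR-376b-3p and miR-376a-3p differed at 3 of 21 bases, 1 of them in the seed. Reads of such near-identical products can be split between them by the counting, so their separate levels are less certain. How reads were assigned between them was not examined.

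The 12 miRNA libraries held 289462 to 471587 reads each, of which 351 to 1985 belonged to the members. The members took 0.0994% to 0.332% of the reads in G12D tumours and 0.163% to 0.462% in WT tumours, with 95% Wilson intervals, which cover counting error only, of 0.0896% to 0.110% around the lowest share and 0.442% to 0.482% around the highest. The highest share was that of WT replicate 5, the library that stands apart from the others here. It had 171 normalized counts of miR-216a-5p and 153 of miR-217-5p, miRNAs known to be abundant in pancreas, where the highest other tumour had 0.842 and 1.11. It was also the highest of the 12 tumours for 17 of the 21 members tested (81.0%), against 32 of 263 other miRNAs (12.2%), so the main results are also given without it. What part this library's makeup has in those values was not tested. The markers of intestinal epithelium, among them the miR-200 family, miR-192-5p and miR-194-5p, were abundant in every tumour, summing to 59069 to 96134 normalized counts in G12D and 60979 to 83727 in WT.

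The 55 members together summed to fewer normalized counts in G12D than in WT tumours on average, with overlapping groups. The G12D tumours had 560, 419, 692, 766, 1076 and 385 normalized counts in replicates 1 to 6, and the WT tumours had 856, 734, 1044, 725, 1511 and 666. G12D replicates 1, 2, 3 and 6 lay at 692 or lower, as did 1 WT tumour. The mean was 650 ± 256 in G12D and 923 ± 318 in WT (SD, n = 6 each), so that the G12D mean was 70.4% of the WT mean. It was 80.7% without WT replicate 5, 61.2% without G12D replicate 5, and 76.7% and 63.5% in batch 2 and batch 1 taken alone. In such bulk samples, fewer cells that make these miRNAs and less miRNA per cell cannot be told apart.

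**Figure D1:**
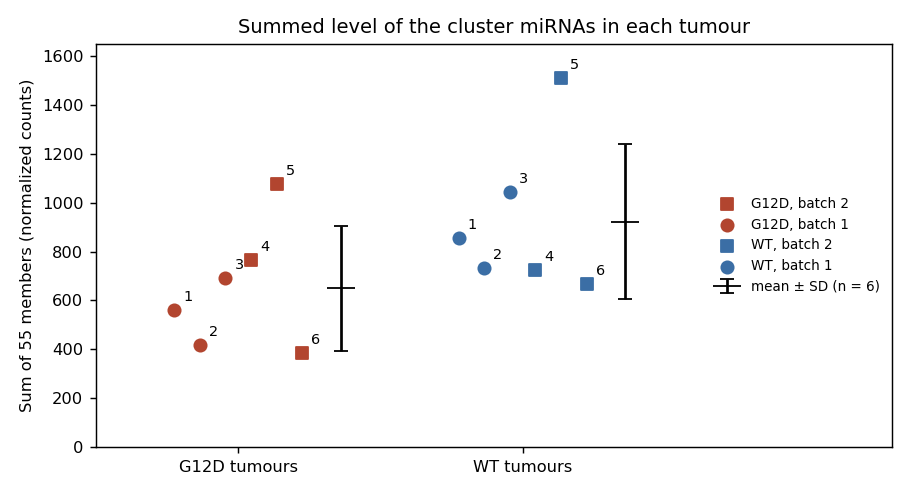
Summed normalized counts of the 55 Dlk1-Dio3 miRNAs in each tumour, G12D left of WT; each point is 1 tumour, with the batch shown by the marker, and bars give the mean and SD of 6 tumours. The groups overlap, with means of 650 and 923, and the highest point is WT replicate 5 at 1511.

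Most of the cluster was scarce in these tumours. A mean of at least 10 normalized counts over the 12 tumours, the level required for testing, was reached by 21 of the 55 members, 7 upstream and 14 downstream, and by 284 of all 596 miRNAs. The other 34 members were not tested: 16 of them averaged under 1 normalized count, 13 averaged 1 to 5, and 5 averaged 5 or more, with miR-409-3p the highest at 9.57 and miR-667-5p the lowest at 0.153. Reads in all 12 libraries were found for 24 members, and 10 members had reads in fewer than 6 libraries. The 5 most abundant members held 44.9% of the cluster's summed level. A count here is of whole mature miRNAs of about equal length, and ligation and pulldown may favour some sequences over others, so an order of levels between members is an order of counts.

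The most abundant member was miR-299a-3p, whose level ranked 132 among all miRNAs. It had 41.6, 104 and 159 normalized counts as lowest, median and highest value in G12D tumours, against 114, 129 and 225 in WT tumours. The groups overlapped, although 4 of the 6 G12D tumours lay under the lowest WT tumour. Its log2 fold change was -0.63 (SE 0.29, limma adjusted p = 0.287).

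The upstream block holds the miRNAs that lie antisense to Rtl1, a retrotransposon-derived gene needed in the placenta. miR-136-5p, which with miR-127 directs cleavage of the Rtl1 mRNA in mouse, had 33.4, 44.2 and 78.3 normalized counts in G12D and 54.4, 64.8 and 126 in WT as lowest, median and highest. The ranges overlapped, with 4 G12D tumours under the lowest WT tumour, and its log2 fold change was -0.52 (SE 0.24, limma adjusted p = 0.277). miR-127-3p had 13.3, 33.3 and 79.0 normalized counts in G12D and 31.1, 43.6 and 223 in WT, and miR-434-3p, also antisense to Rtl1, had 10.7, 26.7 and 37.7 in G12D and 16.5, 43.5 and 81.5 in WT. All 6 G12D tumours lay under the WT median for miR-434-3p and 4 of 6 for miR-127-3p, and the limma adjusted p was 0.396 for miR-434-3p (log2 fold change -0.68) and 0.384 for miR-127-3p (-0.65). miR-540-5p had 6.68, 17.0 and 23.7 in G12D and 13.1, 21.5 and 39.6 in WT (-0.49), and miR-337-5p 1.19, 9.92 and 29.2 in G12D and 4.66, 8.62 and 34.3 in WT (-0.18). Neither showed a separation of the genotypes. miR-673-5p and miR-540-3p, also upstream, are described with the tests.

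In the downstream block, miR-494-3p had 16.3, 25.5 and 47.0 normalized counts in G12D and 31.1, 40.5 and 70.8 in WT. miR-410-3p had 24.5, 46.5 and 57.6 in G12D and 33.1, 49.8 and 91.4 in WT, and miR-379-5p had 20.1, 35.0 and 71.2 in G12D and 31.2, 46.1 and 63.0 in WT. All 3 overlapped between genotypes, with log2 fold changes of -0.64 for miR-494-3p, -0.39 for miR-410-3p and -0.23 for miR-379-5p. miR-134-5p, known in rat neurons for holding back translation of the actin regulator Limk1, had 0, 7.58 and 13.3 normalized counts in G12D and 3.94, 14.0 and 35.8 in WT. All 6 G12D tumours lay under the WT median of miR-134-5p, but its spread was wide (log2 fold change -1.35, SE 0.69, limma adjusted p = 0.318). miR-376b-3p, of a family whose precursors are edited by adenosine deaminases in brain, had 12.6, 25.2 and 61.2 in G12D and 23.3, 39.1 and 62.4 in WT (log2 fold change -0.54).

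The remaining downstream members tested ran from 10.6 to 56.4 normalized counts in their means over all tumours. miR-541-5p had 29.0, 40.9 and 99.6 in G12D and 21.9, 68.1 and 91.7 in WT, and miR-381-3p had 16.3, 33.6 and 40.0 in G12D and 25.6, 33.8 and 68.5 in WT. The ranges of miR-541-5p largely coincided between genotypes (log2 fold change -0.15), while 2 G12D tumours lay under the lowest WT tumour for miR-381-3p (-0.36). miR-299a-5p had 10.7, 18.7 and 40.0 in G12D and 9.90, 29.7 and 52.3 in WT (-0.45), and miR-543-3p 3.58, 9.41 and 33.4 in G12D and 9.33, 18.9 and 49.5 in WT (-0.74). miR-495-3p had 5.20, 12.8 and 18.9 in G12D and 7.77, 15.8 and 32.7 in WT (-0.44). These 3 overlapped as well. miR-411-5p had 5.20, 11.4 and 15.7 in G12D and 2.53, 12.3 and 16.6 in WT, and was the 1 tested member with an estimate above 0 (0.10). miR-300-3p had 5.96, 9.87 and 13.5 in G12D and 5.51, 11.6 and 17.5 in WT (-0.11). Both varied little beyond counting error, their variance over tumours being 1.52 and 1.68 times the counting variance.

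**Figure D2:**
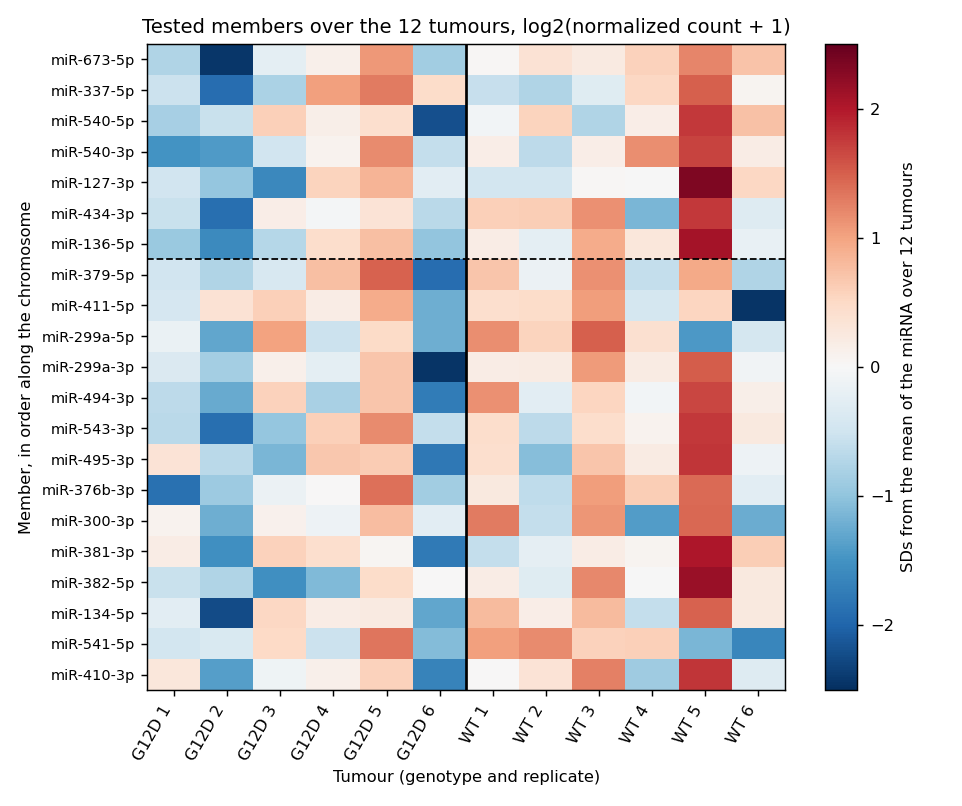
Log2(normalized count + 1) of the 21 members tested, in SDs from the mean of each row over the 12 tumours; rows run in genomic order with the dashed line at the 90738-base gap, and G12D columns stand left of WT columns. WT replicate 5 is the highest column for 17 of the 21 rows.

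The comparison of G12D with WT tumours asks which miRNAs differ with oncogenic K-Ras. None of the 21 members passed the test in either direction (limma with batch as covariate, Benjamini-Hochberg adjustment over all 284 miRNAs, threshold 0.05), where 3.87% of all miRNAs tested passed, 5 higher and 6 lower. An unadjusted p under 0.05 was reached by 4 of the 21 members, all with lower values in G12D, where 17.6% of all miRNAs reached it in either direction and 8.8% with lower values. The estimates leaned one way: 20 of 21 were below 0, where 46.5% of all miRNAs were, and the median log2 fold change was -0.52, against 0.04 over all 284. Members of 1 cluster share tumours and an imprinted domain, so these 20 are not 20 separate observations. Among them, miR-673-5p, miR-382-5p, miR-134-5p and miR-300-3p had G12D means under 10 (7.07, 8.47, 6.66 and 9.75 normalized counts). They reached the level required for testing through their WT tumours. edgeR's quasi-likelihood test and DESeq2 on the recovered reads also called 0 members, with 3 members at an unadjusted p under 0.05 in edgeR, where 18.0% of all miRNAs were, and 2 in DESeq2, where 10.3% were.

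The 4 members with an unadjusted p under 0.05 were miR-673-5p, miR-382-5p, miR-540-3p and miR-136-5p. miR-673-5p had 0, 4.68 and 21.4 normalized counts in G12D and 7.79, 12.1 and 24.4 in WT, with 4 G12D tumours under every WT tumour (log2 fold change -1.32, SE 0.52, limma adjusted p = 0.187). miR-382-5p had 4.45, 7.59 and 14.2 in G12D and 9.33, 12.4 and 35.8 in WT, again with 4 G12D tumours under every WT tumour (-0.87, SE 0.35, limma adjusted p = 0.201). miR-540-3p had 6.87, 11.5 and 27.8 in G12D and 10.9, 16.8 and 35.8 in WT (-0.64, SE 0.28, limma adjusted p = 0.249). The ranges of the genotypes overlapped for all 21 members, while they did not overlap for 2.11% of all miRNAs tested. Leaving out WT replicate 5 moved the median of the 21 members to -0.38, and 1 member then had an unadjusted p under 0.05, where 18.7% of all miRNAs did. Without that tumour 10 of the 21 fold changes moved by over 1.5 times: to -0.35 for miR-127-3p, -0.45 for miR-434-3p, -0.024 for miR-337-5p, -0.22 for miR-410-3p, -0.14 for miR-379-5p, -0.19 for miR-381-3p, -0.25 for miR-495-3p, -0.28 for miR-541-5p and 0.25 for miR-411-5p, while that of miR-300-3p turned to 0.064. Batch 2 alone gave a median of -0.34 with 15 of 21 members below 0, and batch 1 alone -0.70 with 21 of 21. The difference between batches itself was tested as an interaction: 0 members and 0% of all miRNAs passed, the smallest adjusted p of a member being 0.704 in limma, and no member had an unadjusted p under 0.05 (4.23% of all miRNAs did).

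**Figure D3:**
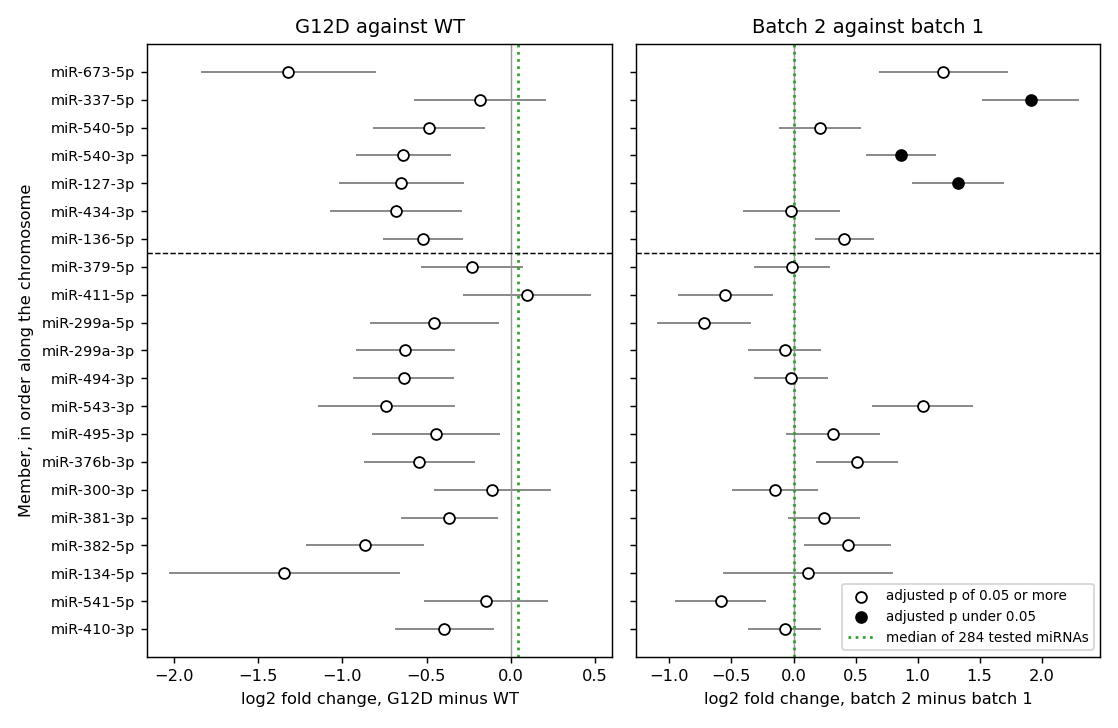
Log2 fold change (points, filled where the adjusted p is under 0.05) and standard error (bars) of the 21 members in genomic order, for G12D against WT on the left and batch 2 against batch 1 on the right, with the dashed line at the 90738-base gap and the dotted line at the median of all 284 miRNAs. For G12D against WT 20 of 21 points lie below 0. For batch 2 against batch 1 the 3 filled points are higher in batch 2 and lie in the upstream block. Of all 284 miRNAs 27.1% passed, 13.7% being higher.

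In the authors' deposited table, 0 of the 38 members with an adjusted p passed 0.05, where 7.18% of all miRNAs with one did. A total of 49 of 55 members in the authors' deposited table had a fold change below 0, against 55.7% of all miRNAs. The 2 members with an unadjusted p under 0.05 in the authors' deposited table, where 10.3% of all miRNAs with a p had one, were miR-382-5p (log2 fold change -0.81, adjusted p = 0.188) and miR-136-5p (-0.50, adjusted p = 0.296). Of the 34 members too scarce to test, 29 had a lower mean in G12D than in WT and 5 a higher one. The same share over the other scarce miRNAs was not counted, and 16 of these 34 members averaged under 1 normalized count.

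Between the batches of the labels, members were called higher in batch 2 about as often as all miRNAs. Of 21 members, 3 passed the test, all upstream and higher in batch 2, where 27.1% of all 284 miRNAs passed, 39 higher (13.7%) and 38 lower. The share of members called higher was near the 13.7% of all miRNAs, and their share called in either direction was below 27.1%. The calls below therefore describe single members and not the cluster. miR-337-5p had 10.1, 19.1 and 34.3 normalized counts in batch 2 as lowest, median and highest, and 1.19, 5.11 and 7.13 in batch 1. The batches did not overlap for it, and its log2 difference was 1.91 (SE 0.39, limma adjusted p = 0.00426). Its mean in batch 1 was 4.79 normalized counts, under the level required for testing, which it reached through its tumours of batch 2. The share of all miRNAs whose batches did not overlap was not counted. miR-127-3p had 35.6, 63.1 and 223 in batch 2 and 13.3, 31.0 and 44.0 in batch 1, with 2 tumours of batch 2, G12D replicate 6 and WT replicate 4, under the highest of batch 1 (1.33, SE 0.37, limma adjusted p = 0.0186). miR-540-3p had 11.1, 22.2 and 35.8 in batch 2 and 6.87, 11.4 and 16.7 in batch 1 (0.86, SE 0.28, limma adjusted p = 0.0388).

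miR-337-5p and miR-127-3p passed in each of the 12 fits that left out 1 tumour. miR-540-3p passed in 3 of those 12, its limma adjusted p reaching 0.0890 and being 0.0658 without WT replicate 5. Leaving out G12D replicate 1, 2, 4 or 5 or WT replicate 1, 2, 3, 4 or 5 ended its call. miR-543-3p passed only without WT replicate 4 (log2 difference 1.22, limma adjusted p = 0.0477), its value over all tumours being 1.04 (adjusted p = 0.0734). The median log2 difference was 0.86 over the 7 upstream members, of which 6 were higher in batch 2, and -0.02 over the 14 downstream members, of which 6 were. Over all 284 miRNAs it was 0.01. The 2 blocks were not tested against each other. With edgeR and TMM scaling the median of all miRNAs moved to 0.15, 61.3% rather than 50.6% of all calls were higher, and the same 3 members passed. The estimate was above 0 for 17 of the 21 members in edgeR with either scaling, against 12 in limma. Relative to all miRNAs the members' median was then 0.26 higher, against 0.21 with the deposited scaling in limma.

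Across the 12 tumours the members went up and down together. The median Pearson correlation of log2 values over the 210 pairs of the 21 members was 0.59, with 200 pairs above 0, where the median over all 40186 pairs of tested miRNAs was -0.01 and 49.3% were above 0. Pairs share tumours, batches and depth, so these correlations are given as a description, with n = 12 tumours each. After taking out the genotype and batch means the median was 0.65. It was 0.74 within batch 2, 0.67 within batch 1, 0.61 within G12D, 0.60 within WT, and 0.50 without WT replicate 5. The co-variation was therefore present inside each genotype and each batch.

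**Figure D4:**
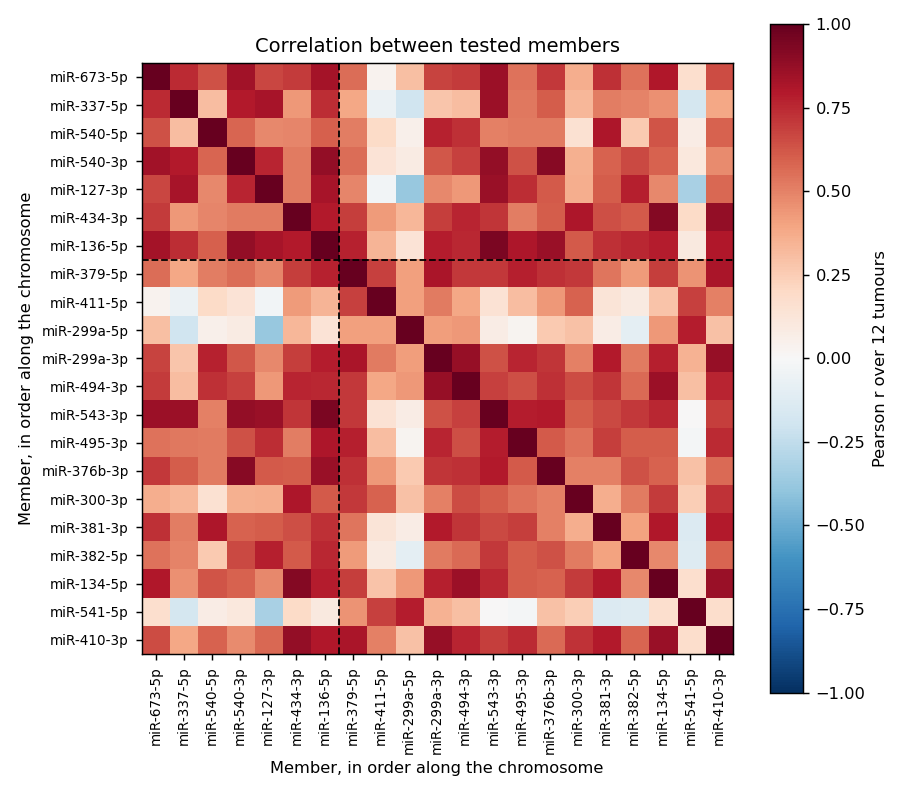
Pearson correlation of log2(normalized count + 1) over 12 tumours for each pair of the 21 members, in genomic order with the dashed line at the 90738-base gap. Of the 210 pairs 200 are above 0, and the rows of miR-299a-5p, miR-541-5p and miR-411-5p are the palest.

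Pairs within the upstream block had a median r of 0.70 (21 pairs), pairs within the downstream block 0.58 (91 pairs), and pairs across the gap 0.57 (98 pairs). Without WT replicate 5 the medians were 0.63 upstream, 0.55 downstream and 0.46 across the gap, and with genotype and batch means taken out they were 0.66, 0.61 and 0.70 in the same order. The order of the 3 sets thus changed with the setting. The 2 highest correlations were both across the gap: miR-136-5p with miR-543-3p at 0.94 and miR-434-3p with miR-134-5p at 0.92. miR-136-5p followed the other members most closely, with a median r of 0.78, or 0.68 without WT replicate 5.

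The products miR-541-5p, miR-299a-5p and miR-411-5p followed the others least over all 12 tumours, with a median r of 0.17, 0.28 and 0.33 (3 members singled out after their values were seen). Of the 4 members that were not highest in WT replicate 5, miR-379-5p (58.6 normalized counts there) and miR-411-5p (12.9) were above their mean in it. miR-299a-5p had 9.90 there, its lowest value of all 12 tumours, and miR-541-5p had 28.2, under its mean of 56.4. Without that tumour their median r was 0.58 and 0.44, and that of miR-411-5p 0.29. The lowest median r without it was that of miR-127-3p at 0.27 (0.55 over all tumours), followed by miR-337-5p at 0.28 (0.44). The lowest correlation of any pair, -0.38 between miR-127-3p and miR-299a-5p, was -0.08 without it. Among themselves the products had an r of 0.79 for miR-299a-5p with miR-541-5p, 0.68 for miR-541-5p with miR-411-5p and 0.41 for miR-299a-5p with miR-411-5p. The near-identical miR-300-3p and miR-381-3p had an r of 0.36, and miR-543-3p and miR-495-3p an r of 0.79.

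Each other tested miRNA was also set against miR-299a-3p, the most abundant member, in 283 correlations adjusted together. All 20 other members correlated positively, where 43.5% of the 283 did, and their median r was 0.68, against -0.12 over the 263 other miRNAs. The test was passed by 2 members, miR-494-3p (r = 0.87, rho = 0.80) and miR-410-3p (r = 0.87, rho = 0.74), each with a permutation p adjusted to 0.0340, where 0.707% of the 283 passed, so both calls among all miRNAs were members. By Spearman's rho 0 passed, the adjusted permutation p being 0.215 for miR-494-3p and 0.250 for miR-410-3p, while 13 of the 20 members had an unadjusted permutation p under 0.05 by rho (9.89% of all 283 did) and 13 by r (8.13%). By rho miR-376b-3p (0.87) and miR-136-5p (0.85) were higher than either, and with genotype and batch means taken out so were miR-379-5p (r = 0.96) and miR-136-5p (r = 0.91). Without the 2 tumours farthest from the median of miR-299a-3p, G12D replicate 6 and WT replicate 5, r was 0.76 for both.

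The 2 calls rested on several single tumours. Without WT replicate 5, miR-494-3p had r = 0.83 and miR-410-3p r = 0.82, and 0 members passed, as was the case without G12D replicate 2, 5 or 6. One member passed without WT replicate 1, 2 or 3, and 3 passed without G12D replicate 1 or 4. With batch means taken out and values permuted within batch, 6 members passed but miR-410-3p did not (r = 0.87, adjusted permutation p = 0.0566). With genotype and batch means taken out and values permuted within each group of 3 tumours, 0 passed, at a median r of 0.78 and a smallest adjusted permutation p of 0.152, since so few orders of 3 tumours limit how small p can be. The median r of the 20 members stayed between 0.64 and 0.73 when 1 tumour was left out at a time, and it was 0.87 within batch 2 and 0.80 within batch 1.

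**Figure D5:**
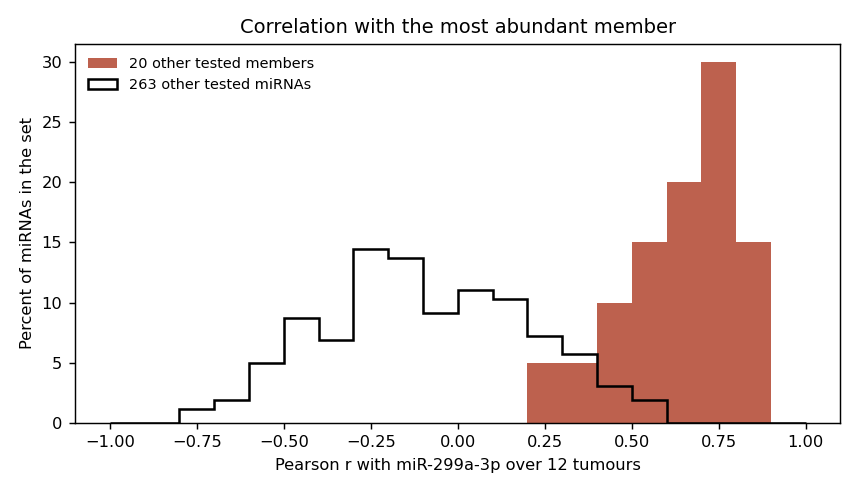
Pearson correlation with miR-299a-3p over 12 tumours for the 20 other members (filled bars) and the 263 other tested miRNAs (outline), as the percent of each set in bins of r. All members lie above 0, with a median of 0.68, and the other miRNAs have a median of -0.12.

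The 34 scarce members, although each rested on few reads, followed the 21 tested ones when summed. Their sum was 30.4 to 117 normalized counts in G12D tumours and 61.5 to 148 in WT tumours. It correlated with the summed level of the tested members at r = 0.96 (rho = 0.97, n = 12), and at 0.96 without WT replicate 5. It is a description of sums that share library, depth and scaling.

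Among miRNAs outside the cluster, the 10 most like it by mean r with the 21 members were miR-148a-5p (0.47), miR-152-3p (0.47), miR-217-5p (0.44), miR-148a-3p (0.44), miR-574-5p (0.43), miR-542-3p (0.41), miR-503-3p (0.41), miR-139-3p (0.40), miR-672-5p (0.40) and miR-137-3p (0.40). The mean r of 17 of the 21 members with the other members lay above the highest of these, the members running from 0.17 to 0.69. miR-217-5p was at 0 in all G12D tumours and rested on WT replicate 5, its mean r being 0.17 without that tumour. Chosen after the values were seen, 6 other miRNA clusters (hairpins within 10000 bases of the next, at least 5 tested products) had median pair correlations from -0.13 to 0.54, against the 0.59 of the Dlk1-Dio3 members. Without WT replicate 5 the members' 0.50 was exceeded by the clusters of miR-322, miR-503 and miR-542 (0.60) and of miR-200a, miR-200b and miR-429 (0.52). With genotype and batch means taken out the members' 0.65 was exceeded by the cluster of miR-182, miR-183 and miR-96 (0.66).

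Marker miRNAs of other cell types were set against miR-299a-3p in the same way, and 0 of them passed, the smallest adjusted permutation p being 0.195 for miR-155-5p (r = -0.70, rho = -0.67). The 28 markers tested ran up to r = 0.56 (rho = 0.45) for the neuronal miR-137-3p, also among the 10 most like the members, and r = 0.48 (rho = 0.41) for miR-375-3p, with adjusted permutation p of 0.606 and 0.658. Both are on the list of nerve and endocrine markers, where r was above 0 for 3 of the 6 tested and as low as -0.42 for miR-9-5p. Over all lists r was above 0 for 14 of the 28 markers. It was above 0 for 6 of 8 of intestinal epithelium, 3 of 6 of leukocytes and blood and 1 of 3 of endothelium. Of smooth muscle and fibroblasts it was above 0 for 1 of 5, miR-133a-3p at 0.11. The mean r of miR-137-3p with the members was 0.23 without WT replicate 5. What part any of these cell types has in the members' values was not tested. Of 10 markers of smooth muscle and fibroblasts, 9 were counted and summed to 252 to 634 normalized counts in G12D and 272 to 1521 in WT, where WT replicate 5 had 639. Their most abundant marker, the muscle miRNA miR-133a-3p, was highest in WT replicate 4 at 1056 and WT replicate 6 at 991, tumours whose members summed to 725 and 666. The 3 endothelial markers summed to 247 to 555 in G12D and 292 to 594 in WT. The 9 markers of leukocytes and blood summed to 1718 to 4024 in G12D and 1783 to 5394 in WT. Of 7 markers of nerve and endocrine cells 6 were counted and summed to 5909 to 10122 in G12D and 7656 to 10371 in WT, nearly all of it miR-375-3p and miR-7a-5p, which the epithelium also expresses. miR-199a-3p and miR-124-3p were not analysed here, and no marker counted was at 0 in every tumour.

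The 8 products of miRNA genes next to the cluster or inside its span but off the list, singled out after their values were seen, had a mean r with the members from -0.18 to 0.43. miR-342-3p and miR-345-5p, which lie 905042 and 726734 bases before the first member, had a mean r with the members of 0.03 and 0.02, and miR-1247-5p, 534310 bases beyond the last and close to Dio3, had -0.18. miR-3072-3p lies 4144 bases beyond the last member and had a mean r of 0.43, above that of 4 of the 21 members. It had 1.65 ± 1.77 normalized counts in G12D and 5.92 ± 8.50 in WT (SD, n = 6 each). Its mean over all tumours, 3.79, was under the level required for testing. Its mean r without WT replicate 5 was not computed. The products of Mir1193, which lies inside the span but was not on the list, were at 0 in all G12D tumours and averaged 1.11 ± 0.802 (5p) and 0.774 ± 0.647 (3p) normalized counts in WT, levels near that of 1 read, with a mean r of 0.18 and 0.17.

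Both arms were counted for 18 hairpins, the 5p product being the higher in 8 and the 3p product in 10. For miR-299a the 5p share of the reads of both arms was 17.2 ± 4.77% in G12D and 17.1 ± 7.46% in WT (SD, n = 6 each), with 4.21% in WT replicate 5 as the lowest value. The 5p share of miR-136 was 94.2 ± 2.68% in G12D and 94.7 ± 3.72% in WT, and that of miR-379 90.6 ± 7.93% in G12D and 88.5 ± 4.82% in WT. miR-540 gave both arms about evenly, with a 5p share of 55.8 ± 12.5% in G12D and 53.0 ± 9.91% in WT. At the other end, miR-494 gave 3 reads of its 5p arm and 480 of its 3p arm over all libraries. For each of these hairpins the genotypes' ranges overlapped.

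The second readout of HEAP is the set of target sites, peaks of RNA fragments pulled down with Argonaute 2. Of 7730 merged peaks, 1 lay between Begain and Dio3. It is on the plus strand of chromosome 12 at 109578003 to 109578057 (mm10), 55 bases long. It lies within the annotated span of Rtl1, 6274 bases after the annotated end of Meg3, between Mir673 and Mir493 and on neither hairpin. It is in the authors' peak list for G12D and not in that for WT, lists of 7569 and 2186 peaks. Its normalized counts, in columns taken here as the mRNA libraries because their names do not give the library type, were 9.65, 8.30, 27.8, 24.8, 36.6 and 10.6 in G12D replicates 1 to 6, and 8.32, 7.58, 13.4, 30.6, 0 and 2.41 in WT replicates 1 to 6. The groups overlapped, and the 2 lowest values were those of WT replicates 5 and 6, which had 30607 and 57037 reads in peaks where the deepest library had 974013.

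The log2 fold change of this peak was 1.34 (SE 0.77, limma adjusted p = 0.180) over 7527 peaks tested, of which 0% were called, and the median of all peaks was 1.33. Its unadjusted p was 0.0968, edgeR called 4 peaks higher and 6 lower and gave this peak an adjusted p of 0.443, and 0.13 was its log2 fold change without WT replicates 5 and 6 (limma adjusted p = 0.928). Without WT replicate 5 alone its log2 fold change was 0.74. Without WT replicate 4 it was 1.84 with a limma adjusted p of 0.0437, in a fit that called 3391 peaks higher and 13 lower. In the authors' deposited table its log2 fold change was 0.67 (adjusted p = 0.348). The authors' annotation of 7585 peaks names 88 seed families with a site, 0 of them named for a member of the cluster, and 0 annotated peaks name a gene of the region. Off the list, miR-1193-5p has the seed of miR-379-5p, and miR-344d-3p that of miR-410-3p. Likewise miR-362-3p has the seed of miR-329-3p, and miR-672-5p that of miR-377-5p. Sites of those seeds could stand under other names, which was not examined.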

How the data were processed

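HEAP was applied to 6 G12D and 6 WT tumours, 3 of each per batch, with miRNA, mRNA and input-control libraries. Tumour lawns were taken when animals were moribund and irradiated 3 times at 400 mJ/cm2, per the labels' protocols. The submitters' processing notes list the aligner STAR 2.5.2b along with DESeq2, GRCm38 and mm10 but give no order or settings. The miRNA and peak tables deposited by the authors hold normalized counts as a signal scaled per library, and the authors' comparison tables hold log2 fold changes, p-values and a score of mean level. In both, 100% of values were whole multiples of 1 read within 0.001 reads, which gave the reads and depth. The strand setting and adapters are not given in the sources used here.

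limma 3.58.1 (R 4.3.3) was fitted to log2(normalized count + 1) with genotype and batch, over the 284 miRNAs with a mean of at least 10 (7527 peaks with a mean of at least 5), two-sided, with Benjamini-Hochberg adjustment. The added 1 pulls the fold change of scarce miRNAs toward 0, but a single low tumour can also enlarge it. Leaving out 1 tumour, it ran from -1.69 to -0.81 for miR-134-5p and from -1.64 to -0.91 for miR-673-5p. Both were at 0 in G12D replicate 2. Correlations used 100000 permutations (scipy 1.17.1). edgeR 4.0.16 and DESeq2 1.42.0 were run on the recovered reads. The fits were tested on simulated data. By rule, members named with values are the 21 tested and the highest and lowest of the rest, and non-members the 10 most like them and the markers; neighbouring miRNAs, pancreas-enriched miRNAs and other clusters were chosen after their values were seen. The members, lists and rules were chosen with earlier results of these data known. The peaks tables had first been set aside as holding no peak in the region, which was wrong, and were then used as planned.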

Additional observations from a re-analysis of the deposited data

Results flagged for a closer look

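In 6 of 70 groups of 6 tumours examined, 42 of them groups of a member, the highest or lowest tumour lay far from the rest, its gap to the nearest tumour over the group's whole range being above Dixon's 95% critical value. For normally distributed values in separate groups, chance flags about 1 in 20 groups. The groups here share tumours and the members vary together, so that rate is only a rough guide. All 6 were high values of WT replicate 5. Among the members, the gap over range was 0.837 for miR-127-3p (223 normalized counts, next 62.3), 0.729 for miR-543-3p (49.5, next 20.2), 0.655 for miR-381-3p (68.5, next 40.4) and 0.652 for miR-337-5p (34.3, next 15.0). The members' share of reads had a gap over range of 0.698 (0.462%, next 0.253%). The pancreas-enriched miR-217-5p had 0.993 (153, next 1.11).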

How the results depend on the processing

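No alternative called a member between genotypes: the limma fits with pseudocount 0.5 or 5, no filter, a mean of at least 50, no batch term, each batch alone, each tumour left out or WT replicates 5 and 6 left out, or the replicate block in place of batch, edgeR by deposited or TMM factors, and DESeq2. Under these settings 474 values of single members kept their direction and 13 reversed. Leaving out 1 tumour, the log2 fold change ran from -0.39 to 0.086 for miR-337-5p, -0.27 to 0.064 for miR-300-3p and -0.19 to 0.25 for miR-411-5p. The reversed values were 0.086 for miR-337-5p and 0.039 for miR-300-3p without G12D replicate 2, 0.017 and 0.064 for miR-300-3p without WT replicate 1 and 5, and -0.089, -0.19 and -0.11 for miR-411-5p without G12D replicate 5, WT replicate 6, and WT replicates 5 and 6. They were 0.45, 0.12, 0.051, 0.27 and 0.28 for miR-541-5p, miR-379-5p, miR-299a-5p, miR-337-5p and miR-300-3p in batch 2 alone, and -0.30 for miR-411-5p in batch 1 alone. Over all miRNAs, edgeR called 6 higher and 8 lower and DESeq2 11 and 20, against 5 and 6 by limma.

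Same-numbered tumours did not deviate together in every pair around genotype and batch means (r from -0.36 to 0.30). Around genotype means alone, with the shared batch left in, r ran from 0.07 to 0.46. These values cannot tell whether the numbers pair the samples. With the replicate block in place of batch 0 members were called, 9 had an unadjusted p under 0.05 (20.8% of all miRNAs did), the smallest adjusted p was 0.109, and the median stayed -0.52. For the peak the replicate block gave 1.34 (adjusted p = 0.236), pseudocount 5 gave 0.82, and leaving out 1 library gave 0.74 to 1.84.

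In the comparison of batches miR-540-3p was not called with no filter (limma adjusted p = 0.0785). The number of members that passed with miR-299a-3p was 6 with batch means taken out, 0 with genotype and batch means taken out, and 0 to 3 leaving out 1 tumour. The median r was 0.80 and 0.78 in the first 2, 0.87 within batch 2 and 0.80 within batch 1. The median over member pairs was 0.74 within batch 2. The cause of these changes was not tested. The 34 members at under 10 normalized counts on average were left untested. For the 21 tested, the variance over tumours was 1.52 to 61.9 times the counting variance.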
